A study of Homo sapiens with 9 samples.

Results

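The chromobox (*CBX*) genes examined here were *CBX1*, *CBX2*, *CBX3*, *CBX5*, *CBX6*, *CBX7* and *CBX8*, 7 of the 19984 genes in the deposited table, and they were taken by symbol. RNA-seq was carried out in LNCaP, an androgen-sensitive prostate cancer cell line from a lymph node metastasis. 3 groups of 3 libraries were compared: the deletion clones del-4 and del-56, in which CRISPR-Cas9 had removed the promoter and the opening exons of the long noncoding RNA gene *EPCART*, and a wild-type (WT) clone of the same line. Cells of every clone were cultured for 48 h in normal medium, and each group was 1 clone, so p-values measure the spread between cultures of these clones and a clone cannot be told apart from its genotype. *EPCART* RNA itself was not analysed here, so the deletion was not checked in these libraries.

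All chromobox proteins carry a chromodomain, a fold that binds methylated lysines of histone H3. *CBX5*, *CBX1* and *CBX3* encode the heterochromatin proteins HP1α, HP1β and HP1γ, which read H3K9 methylation, pair through their chromoshadow domains and are known for compacting and silencing chromatin. *CBX2*, *CBX6*, *CBX7* and *CBX8* encode Polycomb proteins that read H3K27 methylation and bring canonical Polycomb repressive complex 1 (PRC1), a histone H2A ubiquitin ligase, to repressed genes. In prostate cells, Polycomb silencing is best known for its methyltransferase EZH2.

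The question was whether any chromobox gene differed in the deletion clones. *CBX5* stood lowest in del-4, below both WT and del-56, *CBX2* was higher in both deletion clones, *CBX6* was higher in del-4 and *CBX7* was lower in del-56. All of these differences were small, between 8.51% and 20.8%. *CBX1*, *CBX3* and *CBX8* passed the test in no comparison. Values are normalized counts, which are reads on a gene divided by 1 size factor per library, and a gene was called at an adjusted p below 0.05 in limma over all genes tested.

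Counts were summed over a whole gene, and the sequences in front of the start sites are shown for the genes called in 1 deletion clone, since these are the stretches just upstream of annotated starts; which start the counted RNAs used was not measured. Of the 7 genes, 5 had an entry in the RefSeq promoter table (GRCh38.p14), and *CBX2* and *CBX8* had none. Each sequence is written 5′ to 3′ on the strand of the chromobox gene and holds the part of the 250 bases before a start site that lies in no exon of a protein-coding gene. Capitals mark matches, on either strand, to GGGCGG (the GC box), CCAAT or GCGCANGCG (letters of the site bound by NRF1). Where matches overlap, each was counted.
*CBX5*, outer start, chr12:54280134-54280192, minus strand: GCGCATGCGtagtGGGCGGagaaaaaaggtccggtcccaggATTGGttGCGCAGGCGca
*CBX5*, inner start, chr12:54259593-54259836, minus strand: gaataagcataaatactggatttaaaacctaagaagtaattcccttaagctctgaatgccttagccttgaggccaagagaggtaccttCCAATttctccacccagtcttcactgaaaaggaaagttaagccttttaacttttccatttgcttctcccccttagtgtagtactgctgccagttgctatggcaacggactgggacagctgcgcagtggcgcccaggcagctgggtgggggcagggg
*CBX6*, chr22:38872250-38872466, minus strand: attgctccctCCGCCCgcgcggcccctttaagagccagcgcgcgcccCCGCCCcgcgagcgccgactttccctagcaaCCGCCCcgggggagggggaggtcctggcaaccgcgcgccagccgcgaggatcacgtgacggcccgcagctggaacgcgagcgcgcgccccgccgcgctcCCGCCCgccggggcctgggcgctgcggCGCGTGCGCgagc
*CBX7*, chr22:39152681-39152930, minus strand: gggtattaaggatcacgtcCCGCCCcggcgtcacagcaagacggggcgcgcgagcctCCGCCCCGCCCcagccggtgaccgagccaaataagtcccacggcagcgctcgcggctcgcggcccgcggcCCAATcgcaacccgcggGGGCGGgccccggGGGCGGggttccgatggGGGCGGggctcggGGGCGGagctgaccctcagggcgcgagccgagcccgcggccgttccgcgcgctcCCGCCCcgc

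The outer *CBX5* stretch is the 59 bases that separate *CBX5* from *HNRNPA1*, whose transcription runs the other way. The full 250 bases before this start held 3 matches to GCGCANGCG, 1 GC box and 1 CCAAT, whereas those before the inner start held 1 CCAAT and no match to the other motifs. *CBX7* had 8 GC boxes and 1 CCAAT, and *CBX6* had 4 GC boxes and 1 match to GCGCANGCG. Among 35116 RefSeq promoters of this length, 42.6% held a GC box, 32.0% held CCAAT and 6.56% held GCGCANGCG. The E2F letters TTTGGCGC, TTTCCCGC or TTTCGCGC stood in 2.32% of promoters and in none of those of the 5 chromobox genes. The windows of *CBX6* and *CBX7* were 79.2% and 78.8% G and C, against 54.8% before the outer *CBX5* start and a median of 58.0% over all promoters. These matches describe letters only, and the deposited counts do not separate the outer from the inner *CBX5* starts.

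Read depth was high in every library, with 91074556 to 118877134 reads on genes, and the chromobox genes had between 1234 reads (*CBX7*) and 45042 reads (*CBX3*) in a library. Among values of 1 to 20 reads 83.8% were even, as where both mates of a pair are counted, so independent fragments were fewer than these reads. The cells carried the markers of luminal prostate cancer: 9 luminal genes, among them *KLK3*, *KRT8* and *KRT18*, summed to 351112 to 371821 normalized counts per library. Single luminal genes still differed: relative to WT, 3 were called higher and 5 lower in del-4, and 2 higher and 3 lower in del-56. Between the deletion clones 3 were higher in del-4 and 4 lower. Of all genes tested, 40.7%, 39.7% and 19.9% were called in these comparisons. Basal markers summed to at most 64.3 and endothelial markers to at most 6.03, where *KRT5*, *TP63*, *PECAM1* and *CDH5* had means below 10 in all clones and *KRT14* made up most of the basal sum. Neuroendocrine markers summed to 2459 to 2614 in del-4, 1744 to 1888 in del-56 and 1763 to 1927 in WT, nearly all of it *ENO2*, and *CHGA*, *CHGB* and *INSM1* had means below 10 in all clones. Fibroblast markers summed to 1046 to 1410, nearly all of it *COL1A1*, and leukocyte markers to 486 to 565, nearly all of it *CD68*. The part of these markers in the chromobox results was not tested.

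To place the genes on one scale, normalized counts were divided by the length of each gene's merged exons. In WT the order of these levels was *CBX3* (8574 ± 375 per kb, SD, n = 3), *CBX1* (5798 ± 131), *CBX6* (3417 ± 55.2), *CBX5* (2260 ± 97.2), *CBX2* (1672 ± 45.7), *CBX8* (1156 ± 54.7) and *CBX7* (252 ± 6.57). No neighbours in this order overlapped in WT. The lowest gene, *CBX7*, thus lay far below the other members, and HP1γ and HP1β mRNAs led. In del-56 the order was the same, but the levels of *CBX5* (1969 to 2247 per kb) and *CBX2* (1935 to 2050 per kb) overlapped. In del-4 *CBX2* (1963 to 2053 per kb) stood above *CBX5* (1806 to 1902 per kb) without overlap. The separation in del-4 depended on the length used. Per kb of the longest transcript the del-4 means of *CBX2* and *CBX5* kept this order (2475 and 2405), but their libraries overlapped.

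**Figure D1:**
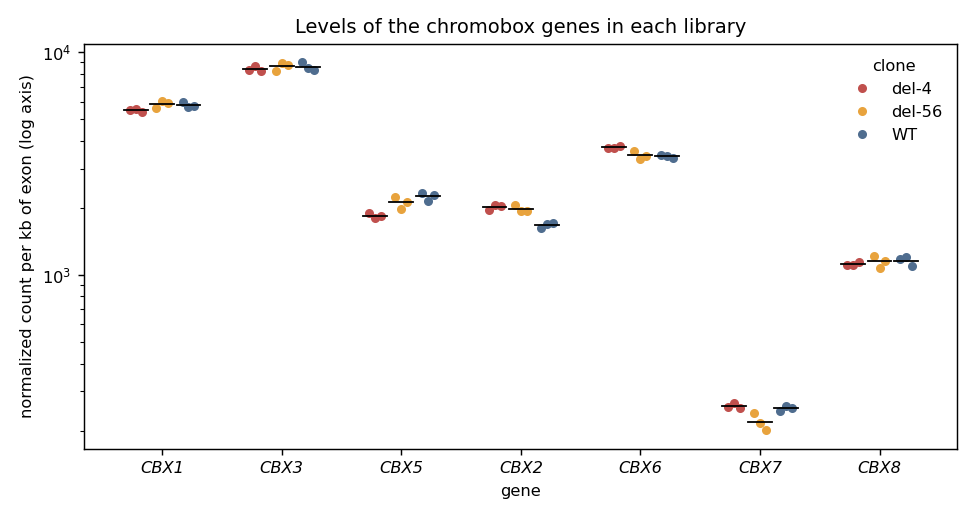
Level of each chromobox gene in every library, as normalized count per kb of merged exon on a log axis. Points are libraries of del-4, del-56 and WT, and black bars are group means (n = 3). *CBX3* lay highest and *CBX7* lowest in all clones, and the order of *CBX5* and *CBX2* differed between del-4 and WT.

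*CBX5* (ENSG00000094916.16, chr12:54230942-54280133, GRCh38, minus strand) encodes HP1α, the HP1 protein most concentrated at pericentric heterochromatin. The libraries of del-4 gave normalized counts of 28597, 27158 and 27547. Those of del-56 gave 33795, 29608 and 31936. Those of WT gave 35210, 32363 and 34365. All del-4 libraries lay below all libraries of del-56 and WT, whereas the del-56 libraries ran from below the WT range into it. *CBX5* RNA fell by 18.2% in del-4 relative to WT, a log2 fold change of -0.29 (SE 0.038, limma adjusted p = 7.54e-06). This fall is in RNA only: CBX5 protein, which was not analysed here, is listed in the paper as higher in del-4 and in del-56. In del-56 the log2 fold change was -0.10, with a 95% interval from -0.20 to 0.0040 and an adjusted p of 0.121 in limma, so no difference from WT was called. The clones were compared directly as well: *CBX5* fell by 12.5% from del-56 to del-4 (log2 fold change -0.19, SE 0.044, limma adjusted p = 0.00433). The missing call in del-56 depended on 1 library and on the scaling. Without del-56 replicate 1 *CBX5* was called lower than WT (-0.14, limma adjusted p = 0.0138). It was also called when the libraries were rescaled to the same total (-0.13, limma adjusted p = 0.0404).

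The other HP1 genes moved less. *CBX1* (ENSG00000108468.15, chr17:48070052-48101478, minus strand) encodes HP1β, and its normalized counts were 16683, 16989 and 16458 in del-4, 17065, 18372 and 18009 in del-56, and 18098, 17338 and 17514 in WT. The del-4 libraries lay below all others, but the difference from WT was not called (log2 fold change -0.08, 95% interval -0.15 to -0.0068, limma adjusted p = 0.0758), nor was that from del-56 (-0.09, limma adjusted p = 0.0981). Rescaling to the same total (-0.15, limma adjusted p = 0.00189) or quantile normalization (-0.11, limma adjusted p = 0.0106) brought the *CBX1* difference between del-4 and WT past the threshold. Both also did so between the deletion clones, as did leaving out del-56 replicate 1 (-0.12, limma adjusted p = 0.0165). *CBX3* (ENSG00000122565.19, chr7:26201162-26213607, plus strand) encodes HP1γ, which also occurs within active genes. Its normalized counts were 40074, 41800 and 39858 in del-4, 39749, 43424 and 42524 in del-56, and 43527, 40928 and 40033 in WT, and all clones overlapped. Its log2 fold changes were -0.03 in del-4 (95% interval -0.11 to 0.05) and 0.01 in del-56 (95% interval -0.08 to 0.11). The *CBX3* difference in del-4 was called on the same 2 rescalings, at -0.10 (limma, adjusted p = 0.0329) and -0.09 (limma, adjusted p = 0.0485).

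A share within a library does not depend on the scaling between libraries, so *CBX5* was also expressed as a percentage of the 3 HP1 genes, each per kb of merged exon. *CBX5* made up 12.1%, 11.3% and 11.8% in del-4. It made up 14.0%, 11.6% and 12.6% in del-56. It made up 13.5%, 13.2% and 14.0% in WT. The del-4 shares lay below all WT shares and the del-56 shares spanned both. The mean share in del-4 differed from that in WT by -1.84 percentage points (11.8% ± 0.44 against 13.6% ± 0.41, SD, n = 3, exact permutation p = 0.1, two-sided, the smallest that 3 against 3 libraries allow). In del-56 the difference was -0.851 percentage points (12.7% ± 1.20, exact permutation p = 0.3). Since the 3 shares sum to the whole, the lower share of *CBX5* in del-4 came with a higher share of *CBX3* without a rise in its counts. *CBX3* stood at 53.3% ± 0.53 against 51.5% ± 0.72 in WT, whereas the share of *CBX1* differed by only 0.048 percentage points.

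**Figure D2:**
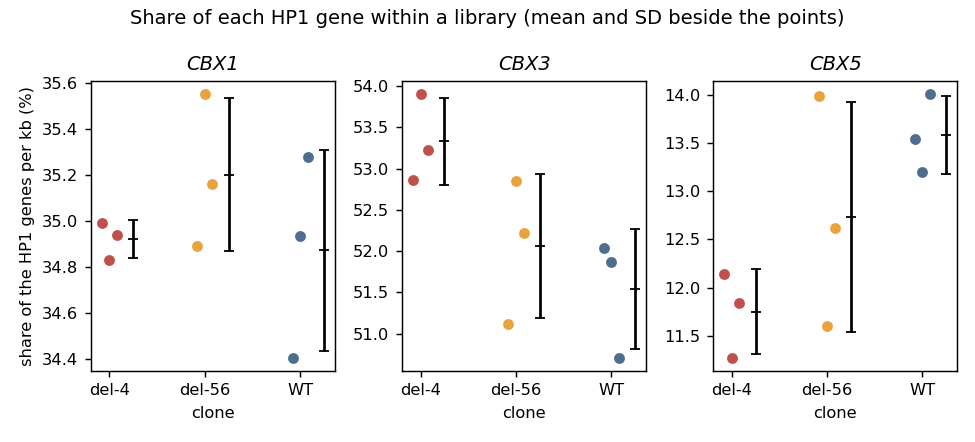
Share of *CBX1*, *CBX3* and *CBX5* in the summed HP1 genes per kb of merged exon, in percent, for each library. Points are libraries, bars beside them are mean and SD (n = 3), and each panel has its own y axis that does not start at 0; the *CBX5* shares of del-4 (11.3% to 12.1%) lay below those of WT (13.2% to 14.0%).

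*CBX2* (ENSG00000173894.11, chr17:79778148-79787983, plus strand), a PRC1 subunit that compacts nucleosomes, was the chromobox gene that rose in both deletion clones. In del-4 the normalized counts were 11130, 11642 and 11594. They were 11627, 11005 and 10974 in del-56, and 9192, 9573 and 9687 in WT. Every deletion-clone library lay above every WT library, and del-4 and del-56 overlapped. *CBX2* was 20.8% higher in del-4 (log2 fold change 0.27, SE 0.037, limma adjusted p = 9.93e-06) and 18.1% higher in del-56 (0.24, SE 0.039, limma adjusted p = 1.45e-04). These comparisons share the WT libraries. The direct difference between del-4 and del-56 was 0.03 (95% interval -0.05 to 0.11, limma adjusted p = 0.621). Both calls of *CBX2* against WT held in all 16 alternative fits.

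*CBX6* (ENSG00000183741.12, chr22:38861422-38872249, minus strand) encodes one of the less studied Polycomb chromobox proteins. Normalized counts of *CBX6* were 29597, 29709 and 30267 in del-4. They were 28828, 26578 and 27187 in del-56, and 27662, 27453 and 26815 in WT. The del-4 libraries lay above all others, and del-56 and WT overlapped. *CBX6* was 9.33% higher in del-4 than in WT (log2 fold change 0.13, SE 0.033, limma adjusted p = 0.00464) and 8.51% higher than in del-56 (0.12, SE 0.038, limma adjusted p = 0.0355), and its log2 fold change in del-56 was 0.01 (95% interval -0.07 to 0.09). The call against WT was lost when libraries were rescaled to the same total (0.06, limma adjusted p = 0.147) or quantile normalized (0.08, limma adjusted p = 0.0540). The call against del-56 was lost under the same 2 scalings and without any 1 del-4 library, del-56 replicate 2 or del-56 replicate 3, with log2 fold changes of 0.07 to 0.12 and limma adjusted p of 0.0584 to 0.200.

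*CBX7* (ENSG00000100307.13, chr22:39120167-39152680, minus strand) encodes the Polycomb protein known for silencing the *CDKN2A* locus, and it was the least abundant member. Normalized counts of *CBX7* were 1900, 1991 and 1882 in del-4. They were 1790, 1612 and 1496 in del-56, and 1832, 1930 and 1883 in WT. The del-56 libraries lay below all others and also spread the most, with an SD of 148 against 58.4 in del-4 and 49.1 in WT. *CBX7* fell by 13.4% in del-56 relative to WT (log2 fold change -0.21, SE 0.069, limma adjusted p = 0.0247), and it was 18.1% higher in del-4 than in del-56 (0.24, SE 0.069, limma adjusted p = 0.0202). Its log2 fold change in del-4 relative to WT was 0.03 (95% interval -0.09 to 0.15). The *CBX7* call in del-56 was lost without WT replicate 2 (-0.19, limma adjusted p = 0.0932), WT replicate 3 (-0.21, adjusted p = 0.0726), del-56 replicate 2 (-0.20, adjusted p = 0.0662) or del-56 replicate 3 (-0.15, adjusted p = 0.133). Its difference between the deletion clones was no longer called without any 1 del-4 library, del-56 replicate 2 or del-56 replicate 3, or under rescaling to the same total, with log2 fold changes of 0.18 to 0.26 and limma adjusted p of 0.0546 to 0.118.

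*CBX8* (ENSG00000141570.11, chr17:79792132-79801683, minus strand), the Polycomb gene 23535 bases from the start of *CBX2*, had normalized counts of 4553, 4554 and 4722 in del-4, 5034, 4445 and 4758 in del-56, and 4846, 4947 and 4515 in WT. The clones overlapped. Its log2 fold changes were -0.05 in del-4 (95% interval -0.14 to 0.05) and -0.01 in del-56 (95% interval -0.12 to 0.10). On rescaling to the same total *CBX8* was called lower in del-4 (-0.12, limma adjusted p = 0.0431). Within a library the log2 ratio of *CBX2* to *CBX8* ran from 1.29 to 1.35 in del-4, from 1.21 to 1.31 in del-56 and from 0.92 to 1.10 in WT, so both deletion clones lay above WT in this ratio. The log2 ratio of *CBX2* to *CBX7* ran from 2.55 to 2.62 in del-4, from 2.70 to 2.87 in del-56 and from 2.31 to 2.36 in WT, and no clones overlapped.

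**Figure D3:**
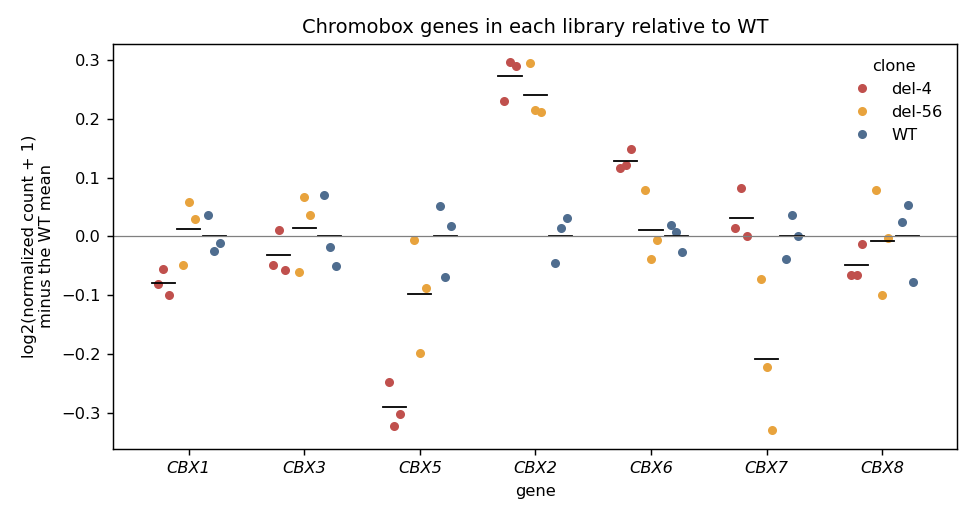
Each library's log2(normalized count + 1) minus the mean of the WT libraries, for the 7 chromobox genes. Points are libraries, black bars are group means (n = 3) and the grey line marks the WT mean; *CBX5* lay lowest in del-4 and *CBX2* lay above WT in all 6 deletion-clone libraries.

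Counted together, 3 of the 7 genes were called in del-4 (*CBX2* and *CBX6* higher, *CBX5* lower), while 40.7% of the 17401 genes tested were called, 20.5% higher and 20.2% lower. In del-56, 2 of 7 were called (*CBX2* higher, *CBX7* lower), against 39.7% of 17481 genes, 19.2% higher and 20.5% lower. Between the deletion clones 3 of 7 were called (*CBX6* and *CBX7* higher in del-4, *CBX5* lower), against 19.9% of 17447 genes, 10.9% higher and 9.0% lower. Against WT these counts stood near the background of all genes. Libraries of the 2 groups did not overlap for 4, 2 and 4 of the 7 genes in these comparisons, against 49.5%, 48.7% and 34.7% of all genes. The median log2 fold change of the 7 genes was -0.03, 0.01 and -0.04, and that of all genes was between -0.0028 and -0.0011. No chromobox gene passed a log2 fold change of 1 in either direction, a limit that 5.82%, 5.94% and 4.28% of genes passed together with an unadjusted p below 0.05.

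**Figure D4:**
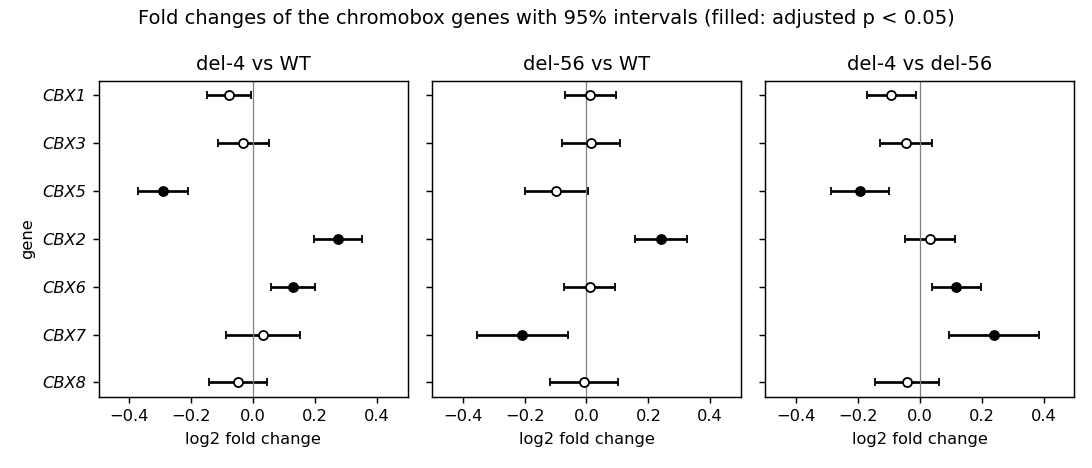
Log2 fold change of each chromobox gene in the 3 comparisons, with 95% intervals from limma. Filled circles mark an adjusted p below 0.05 over all genes; the called values ran from -0.29 (*CBX5*, del-4 vs WT) to 0.27 (*CBX2*, del-4 vs WT).

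Some members lie against other genes, which bears on what their counts hold, since the use of strand in counting was not stated. *HNRNPA1*, which encodes an abundant splicing factor and has many processed pseudogenes, starts 60 bases from the *CBX5* start on the opposite strand, across the short stretch printed above. Its normalized counts were 199945, 201538 and 194505 in del-4, 209164, 212099 and 214990 in del-56, and 199913, 179379 and 176123 in WT. Here the del-56 libraries lay above all others, and del-4 overlapped WT. *HNRNPA1* was higher in del-56 (log2 fold change 0.20, SE 0.055, limma adjusted p = 0.00851), and its value in del-4 was 0.10 (limma, adjusted p = 0.119). The *HNRNPA1* call in del-56 was lost without WT replicate 2 (0.18), WT replicate 3 (0.16) or del-56 replicate 3 (0.19) and with the replicate block (0.20), at limma adjusted p of 0.0519 to 0.0616, and under quantile normalization it held at 0.096. In del-4 *HNRNPA1* was called without WT replicate 1 (0.16, limma adjusted p = 0.00428) and in DESeq2 (0.10, adjusted p = 0.0434), and its direct difference between the clones was -0.09 (limma, adjusted p = 0.146), which was not called. The antisense long noncoding gene *SCAT2* covers 2501 exon bases of *CBX5* and ENSG00000258344 covers 126, so if strand was not used their reads cannot be told apart from those of *CBX5*.

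At *CBX3*, *HNRNPA2B1*, a second splicing factor gene, overlaps 368 exon bases on the opposite strand. *HNRNPA2B1* fell in del-4 (log2 fold change -0.15, limma adjusted p = 0.0120), and its value in del-56 was -0.06 (limma, adjusted p = 0.373). The call in del-4 was lost without del-4 replicate 3 (-0.11, limma adjusted p = 0.120), and quantile normalization gave -0.34 in del-4 and a called -0.15 in del-56 (limma, adjusted p = 0.00398). *NFE2L3*, a transcription factor gene on the other side of *CBX3*, fell in del-4 (-0.26, limma adjusted p = 0.00210) and stood at -0.04 in del-56. Antisense noncoding genes cover 1338 exon bases of *CBX7* and 283 of *CBX8*. *CBX1*, *CBX3* and *CBX5* have 5, 10 and 1 annotated processed pseudogenes, whose near-identical sequence makes read assignment less certain for these genes.

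The remaining neighbours moved in various ways. Beside *CBX1*, the stress-response factor *NFE2L1* rose in both clones (0.16 and 0.16), and the sorting nexin *SNX11* rose in del-4 (0.24, limma adjusted p = 0.00416) and stood at 0.14 in del-56. Beside *CBX6* and *CBX7*, the cytidine deaminase genes *APOBEC3A* (0.26 in del-4, 0.19 in del-56) and *APOBEC3H* (1.21 in del-4, limma adjusted p = 0.00862) rose, and *APOBEC3H* stood at 0.95 in del-56 with an adjusted p of 0.0565 in limma. It was called there without del-56 replicate 1 (1.19, limma adjusted p = 0.0301) and in 3 other alternative fits. The closely similar sequences of the APOBEC3 family make read assignment among them uncertain. *SMUG1*, *NPTXR*, *PDGFB* and *ENPP7* were called in neither clone. Over all tested genes within 5000000 bases of each member, the median log2 fold changes against WT ran from -0.09 to 0.04.

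To see which genes followed *CBX5* across the libraries, 13085 genes with a mean of at least 100 were ranked by the root mean square difference of their centred log2 values from those of *CBX5* over the 9 libraries. The nearest were *VPS13B* (0.0373), *FUT8* (0.0394), *CCDC136* (0.0454), *MBTPS1* (0.0458) and *WDR31* (0.0467), against a median of 0.175. *VPS13B* encodes a lipid transfer protein of the Golgi, *FUT8* the core fucosyltransferase and *MBTPS1* the site-1 protease that cleaves SREBP factors. Since they were picked for this likeness, their mean normalized counts stepped down from WT through del-56 to del-4 as those of *CBX5* did. For *MBTPS1* the means were 8515, 7803 and 6868. Of the other chromobox genes, *CBX1* (rank 1560, difference 0.115), *CBX8* (rank 1612, 0.116) and *CBX3* (rank 3306, 0.137) lay nearer to *CBX5* than the median gene. *CBX6* (rank 7124, 0.183), *CBX7* (rank 8271, 0.200) and *CBX2* (rank 9993, 0.240) lay farther. A gene that hardly changes also gets a small difference here, so lying nearer than the median does not show that it followed *CBX5*.

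Genes that work with HP1 were examined as a list of 27, all of them measured. In del-4, 6 rose and 5 fell, and in del-56, 10 rose and 5 fell, with medians of 0.00096 and 0.02 on the log2 scale. These are 11 and 15 called genes of 27, where 40.7% (del-4) and 39.7% (del-56) of all genes were called, so the share in del-4 stood at the background. The largest rise in both clones was that of *KDM4A*, a demethylase of H3K9 (0.53 in del-4 and 0.60 in del-56), followed by *ATF7IP*, the partner of the H3K9 methyltransferase SETDB1 (0.36 and 0.30). *SETDB2*, another putative H3K9 methyltransferase gene, fell in both (-0.26 and -0.39), as did *MPHOSPH8* (-0.31 and -0.20), which encodes the chromodomain subunit of the HUSH silencing complex. *TASOR*, a further HUSH subunit, fell in del-56 (-0.27, limma adjusted p = 7.14e-04), stood at -0.09 in del-4 and differed between the clones (0.18, limma adjusted p = 0.0350). That difference was lost in 6 of 16 alternative fits: under the same total, without del-4 replicate 2 or 3 and without any 1 del-56 replicate (0.13 to 0.20, limma adjusted p from 0.0531 to 0.195). Without WT replicate 2 the count in del-4 was 7 (5 higher, 2 lower).

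Among 23 other PRC1 genes, 12 rose and 3 fell in del-4, and 7 rose and 2 fell in del-56, with median log2 fold changes of 0.11 and 0.03. Over all genes 20.5% rose and 20.2% fell in del-4, while 19.2% rose and 20.5% fell in del-56, so the 9 of 23 called in del-56 stood at the background of 39.7%. *BCORL1*, a corepressor of noncanonical PRC1, rose in both (0.57 and 0.58), as did *AUTS2*, a partner of a noncanonical PRC1 (0.29 and 0.48). *PCGF5*, which encodes a RING finger subunit, went in opposite directions. Its normalized counts were 4719, 4233 and 4368 in del-4, 2719, 2667 and 2677 in del-56, and 2992, 3056 and 3094 in WT, with no overlap among the clones. *PCGF5* rose in del-4 (log2 fold change 0.54, SE 0.048, limma adjusted p = 6.71e-08), fell in del-56 (-0.18, SE 0.048, limma adjusted p = 0.00643) and differed by 0.72 between them (limma, adjusted p = 8.25e-09). The catalytic subunit gene *RING1* fell in del-56 (-0.20, limma adjusted p = 0.00417) and was higher in del-4 (0.14, limma adjusted p = 0.0307), with a difference of 0.34 between the clones (limma, adjusted p = 9.10e-05). Its call in del-4 was lost in 4 of 16 alternative fits, under the same total (0.071, limma adjusted p = 0.272) and without del-4 replicate 1, WT replicate 2 or WT replicate 3 (0.10 to 0.14, limma adjusted p from 0.0970 to 0.156). *RNF2*, which encodes the other catalytic subunit, fell in del-4 (-0.15, limma adjusted p = 0.0348) and stood at -0.01 in del-56, and *E2F6*, a repressive E2F factor gene, fell in del-4 (-0.20) and stood at -0.10 in del-56. The *RNF2* call in del-4 was lost in 5 of 16 alternative fits, under quantile normalization and without del-4 replicate 1 or 2 or WT replicate 1 or 2 (-0.14 to -0.13, limma adjusted p from 0.0610 to 0.114).

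PRC2 writes the H3K27 methylation that Polycomb chromobox proteins read. Of its 12 listed genes, 6 rose and 2 fell in del-4, and 6 rose and 3 fell in del-56, with medians of 0.13 and 0.17, where 40.7% (del-4) and 39.7% (del-56) of all genes were called. The catalytic subunit gene *EZH2* fell in both clones (-0.14, limma adjusted p = 0.0179, and -0.25, limma adjusted p = 0.00131), as did the histone-binding subunit gene *RBBP7* (-0.14 and -0.12), and *EED*, whose protein stimulates the catalytic subunit, fell in del-56 (-0.18) and stood at -0.12 in del-4. The *EZH2* call in del-4 was lost without del-4 replicate 1, WT replicate 2 or WT replicate 3 (-0.12 to -0.11, limma adjusted p from 0.0868 to 0.0899). In del-56 the *RBBP7* call was lost without WT replicate 3 or del-56 replicate 1 and with the replicate block (-0.12 to -0.093, limma adjusted p from 0.0504 to 0.0594), and that of *EED* without WT replicate 3 (-0.17, limma adjusted p = 0.0527). *EED* was called in del-4 under the same total (-0.19) and without del-4 replicate 1 (-0.16). The accessory subunit gene *PHF19* rose in both (0.54 and 0.36), as did *EPOP* (0.31 and 0.40). *PHF1* rose in del-4 (0.54, limma adjusted p = 1.01e-05), stood at 0.17 in del-56 and differed between them (0.37, limma adjusted p = 9.28e-04). Without WT replicate 3 *PHF1* was called in del-56 (0.25, limma adjusted p = 0.0473).

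Of 12 other chromodomain genes, 6 rose and 1 fell in del-4, and 8 rose and 1 fell in del-56, with medians of 0.14 and 0.15, against 40.7% and 39.7% of all genes called. The fall in both was that of the remodeler gene *CHD9* (-0.85 and -0.72). *CHD7* (0.56 and 0.37) and *CHD5* (0.38 and 0.75) rose in both. *CHD9* lies on chromosome 16, and *CHD5* and *KDM4A* lie on chromosome 1. Neighbours were examined for the *CBX* genes only, so whether these genes moved with their chromosome regions was not tested. Among 9 genes known as Polycomb targets, 2 rose and 4 fell in del-4, and 3 rose and 3 fell in del-56, with medians of -0.25 and -0.21, so 6 of 9 were called in each clone against 40.7% and 39.7% of all genes. Polycomb binding at these genes was not measured, and whether their changes came through Polycomb proteins was not tested. *CDKN1A*, which encodes the cell cycle inhibitor p21, had normalized counts of 21047, 20674 and 20857 in del-4, 14880, 15410 and 15068 in del-56, and 10006, 10499 and 10618 in WT. No clones overlapped. It rose by 1.01 in del-4 (SE 0.035, limma adjusted p = 2.94e-13) and by 0.54 in del-56 (SE 0.038, limma adjusted p = 1.52e-08) on the log2 scale. *CDKN2A*, the locus for which *CBX7* is known, rose in both (0.41 and 0.44), *CDKN1C* rose in del-56 (0.57) and stood at 0.32 in del-4 (its call in del-56 was lost without del-56 replicate 1, at 0.46 with a limma adjusted p of 0.0532), and the Ras GTPase-activating gene *DAB2IP* (-0.91 and -0.61) and the E-cadherin gene *CDH1* (-0.28 and -0.29) fell in both. *MSMB*, named after its values were seen since its mean was below 100, also passed the log2 fold limit of 1 in del-4 (-1.40, limma adjusted p = 0.00171).

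Several chromatin genes, *EZH2* among them, are known to vary with proliferation, so proliferation genes were given beside them. Of 14, 3 rose and 4 fell in del-4, and 3 rose and 8 fell in del-56, with medians of -0.06 and -0.11, against 40.7% and 39.7% of all genes called. The replication helicase genes *MCM5* (-0.42 and -0.45) and *MCM6* (-0.36 and -0.38) fell in both clones, and the mitotic genes *TOP2A* (0.29 and 0.29) and *CCNB1* (0.29 and 0.35) rose in both. Rescaling to the same total gave 3 higher and 8 lower in del-4, and without WT replicate 3 there were 2 higher and 5 lower in del-56. The part of proliferation in the *CBX* results was not tested, and in bulk RNA fewer cells in a state and less RNA per cell cannot be told apart.

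**Figure D5:**
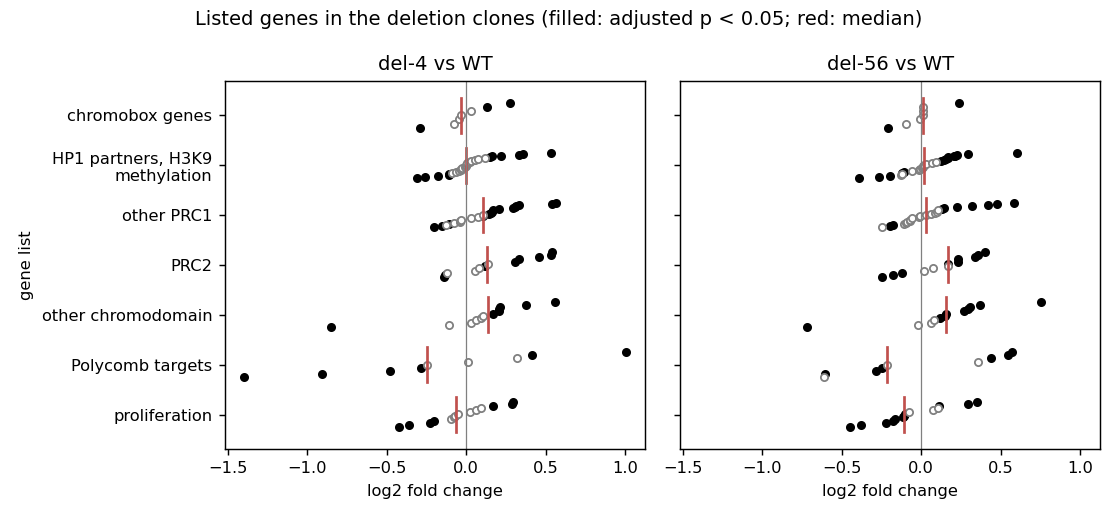
Log2 fold changes of every tested gene in each list, del-4 vs WT on the left and del-56 vs WT on the right. Each circle is a gene, filled circles have an adjusted p below 0.05 and red bars are list medians; the chromobox genes ran from -0.29 to 0.27, while *CHD9*, *DAB2IP* and *CDKN1A* lay farther out.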

How the data were processed

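RNA-seq libraries (strand-specific, polyA-enriched, 150 bp paired-end reads) were analysed from 3 cultures each of del-4, del-56 and WT. Per the study's methods and the labels, the authors aligned reads to GRCh38 with STAR 2.71a and counted them on protein-coding transcripts of GENCODE 38 with BEDTools 2.27.1 multicov. The table deposited by the authors holds signal values: the reads of each gene over a library size factor (normalized counts). Whole reads were recovered for 100.0% of values, within 0.01 of a read. Whether multicov used strand is not given in the sources used here. Depth was 91074556 to 118877134 reads on genes per library, and precision is limited by the spread between cultures. Both mates of a pair appear to be counted in these reads, and edgeR and DESeq2 were given them unchanged.

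Symbols came from a table of Ensembl identifiers, in which 61 of 19984 had none, and positions from GENCODE 44. Each comparison was fitted on its 6 libraries with limma 3.58.1 (R 4.3.3) with a variance trend on log2(normalized count + 1), for genes with a mean of at least 1. P-values were two-sided and Benjamini-Hochberg adjusted over all genes tested, and fold changes and their percentages are on that log2 scale. Intervals are 95%. Shares were compared by exact permutation. Named genes were the members, their nearest protein-coding neighbours, the 5 genes most like *CBX5* and, from each list, the 2 largest called rises and falls per clone with a mean of at least 100, apart from some that are not reported here. Alternatives were pseudocounts of 0.5 and 5, no filter, a filter at a mean of 10, quantile normalization, an equal total for each library, all 9 libraries in a fit, a replicate block, edgeR 4.0.16 and DESeq2 1.42.0 on recovered reads, the study's thresholds, and leaving out each library. On the recovered reads edgeR called 7049 genes in del-4, 6943 in del-56 and 3492 between the clones, against 7082, 6938 and 3469 in limma. The fit was tested on simulated data with planted fold changes larger than any of the *CBX* genes, so that test does not cover changes of their size. The members and lists were chosen with earlier results of these data known. Protein data of the study were not used here. The paper lists CBX5 protein as higher in both deletion clones, so the RNA values given here do not stand for protein levels.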

Additional observations from a re-analysis of the deposited data

Results flagged for a closer look

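3 chromobox genes differed between the deletion clones themselves in limma over all genes, so their changes relative to WT were not alike: *CBX5* by -0.19 (del-4 minus del-56, log2 scale), *CBX6* by 0.12 and *CBX7* by 0.24. *CBX5* kept this call in all 16 alternative fits, whereas *CBX6* lost it in 7 and *CBX7* in 6.

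Among the listed and neighbouring genes the same direct comparison called *PCGF5* (0.72), *CDKN1A* (0.46), *PHF1* (0.37), *RING1* (0.34) and *TASOR* (0.18) as higher in del-4, and *CHD5* (-0.37), *DAB2IP* (-0.30) and *NFE2L3* (-0.22) as lower in del-4. Between the clones *TASOR* lost its call in 6 of 16 alternative fits (adjusted p up to 0.195 in limma), *CHD5* in 3 (without del-4 replicate 1 or 3 or del-56 replicate 2, up to 0.111) and *NFE2L3* in 2 (without del-4 replicate 1 or 3, up to 0.0642). *PCGF5* and *RING1* were called in opposite directions in the 2 clones relative to WT, and the *RING1* call in del-4 was lost in 4 of 16 alternative fits.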

How the results depend on the processing

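*CBX5* in del-4 and *CBX2* in both clones, each relative to WT, kept their direction and call in all 16 alternative fits. Counted at an unadjusted p below 0.05 and a log2 fold change past 1, 0 *CBX* genes were called in del-4, del-56 or between the clones. Rescaling to the same total shifted the median of all genes by at most -0.07 and gave 5 called *CBX* genes in del-4 (1 higher, 4 lower), and *CBX5* in del-56 then stood at -0.13. Leaving out 1 library at a time gave 3 called genes throughout in del-4, 1 to 3 in del-56 and 1 to 4 between the clones. *CBX5* in del-56 then ranged from -0.14 to -0.048, with adjusted p from 0.0138 to 0.498 in limma. *CBX2* alone was called in del-56 without WT replicate 2 or 3 or del-56 replicate 2 or 3, and *CBX5* alone between the clones without any 1 del-4 replicate or del-56 replicate 2 or 3. Recovered reads were also compared between libraries of a clone, as a chi-square per degree of freedom over genes. Replicate 1 of del-56 gave 22.9 and 19.3 against replicates 2 and 3, which gave 6.14 between them. In WT these values were 19.3, 19.6 and 6.70, and the del-4 pairs gave 8.94 to 17.1. Over all genes, 6941 were called in del-56 without its replicate 1, and 5968 and 5833 without replicate 2 or 3. Such fits also had fewer libraries, and the cause of the lost calls was not tested. Without division by length the difference in the share of *CBX5* between del-4 and WT was -3.84 percentage points.

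None of the values that turned their sign was called. Under the same total these were *CBX7* in del-4 (-0.037), *CBX1* (-0.016), *CBX3* (-0.015), *CBX6* (-0.018) and *SMUG1* (-0.022) in del-56, and *CBX2* between the clones (-0.0078). Under quantile normalization these were *ENPP7* (0.033), *HNRNPA1* (-0.084) and *PDGFB* (0.0028) in del-4, and *CBX3* (-0.0086), *CBX8* (0.015) and *RNF2* (0.0042) in del-56. In edgeR *ENPP7* in del-4 stood at 0.024. With 1 library left out, the ranges in del-4 were -0.057 to 0.0032 for *CBX3*, -0.70 to 0.16 for *ENPP7*, -0.035 to 0.013 for *NPTXR* and -0.083 to 0.047 for *PDGFB*. In del-56 they were -0.0096 to 0.044 for *CBX1*, -0.012 to 0.051 for *CBX3*, -0.023 to 0.036 for *CBX6*, -0.051 to 0.038 for *CBX8*, -0.18 to 1.10 for *ENPP7*, -0.082 to 0.0078 for *NFE2L3*, -0.048 to 0.0090 for *RNF2* and -0.033 to 0.035 for *SMUG1*. Between the clones *CBX8* ranged from -0.087 to 0.0031.

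Libraries were not paired by replicate number in the main fits. Deviations of same-numbered libraries correlated weakly, between -0.053 and 0.063, and the correlations that involve del-4 were all positive (0.023 to 0.063). In del-56, 6035 genes were called with a replicate block against 6938 without it. With a replicate block the counts of called *CBX* genes were 3 in del-4, 2 in del-56 and 3 between the clones, and *CBX5* stood at -0.29, -0.10 and -0.19.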
